A study of Homo sapiens with 8 samples.

Results

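MOLT-4 is an established human line of T-cell acute lymphoblastic leukaemia (T-ALL). Its response to the degrader ACBI-1 was taken from the 4 MOLT-4 libraries among the 8 libraries of the study, 2 of cells given 100 nM ACBI-1 and 2 of cells given DMSO, the solvent. All were harvested at 3 h, and the libraries were chosen by the line and treatment in their labels, with no measured value. Of 63677 annotated genes, 14470 passed the filter on low counts and were tested. The other 4 libraries, of the T-ALL line DND-41 under the same treatments, served only for comparison. No engineered allele is named for either line, so the groups differ only in the compound, at 1 dose and 1 time. Nothing in the labels tells whether the 2 libraries of each group were grown as separate cultures, and the p-values therefore reflect a spread between libraries that may be purely technical.

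ACBI-1 is a bifunctional compound with one end for the ubiquitin ligase subunit VHL and one for the bromodomains of SMARCA2, SMARCA4 and PBRM1, and proteins joined to the ligase in this way are destroyed by the proteasome. SMARCA2 and SMARCA4 are the alternative motor subunits of the SWI/SNF nucleosome remodellers known as BAF complexes, and PBRM1 belongs to the PBAF variant. SWI/SNF slides and evicts nucleosomes and keeps many enhancers accessible to transcription factors. T-ALL arises from immature thymocytes, and its cells commonly depend on NOTCH1 signalling, on MYC and on ectopic T-lineage oncogenes such as TAL1. Proteins were not measured here, and the read-out is RNA at an early time, when transcripts of short half-life can already have changed.

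Levels below are in CPM, a gene's count scaled to a common library total, with replicate 1 before replicate 2, and they compare a gene with itself across libraries, not with other genes. A change is the log2 fold change of ACBI-1 over DMSO ± its standard error (SE), and a gene "rose" or "fell" where edgeR's adjusted p was below 0.05 over all genes tested. Gene lists were chosen with earlier results of these data known, so their shares beside those of all genes are descriptive and not a test. The MOLT-4 libraries held between 19867779 and 19918345 counts, of which mitochondrially encoded genes took between 17.8% and 20.04%. The first principal component (70.4% of the variance) separated ACBI-1 from DMSO and the second (17.2%) separated the replicate numbers, and no MOLT-4 library stood apart. Of 19 T-lineage markers 18 were tested, with a summed level between 7668 and 7930 CPM in DMSO and between 7884 and 8198 CPM with ACBI-1. TRBC1, one of the alternative T-cell receptor beta constant genes, had no counts in any MOLT-4 library. The 7 myeloid markers summed to at most 0.604 CPM and the 7 erythroid markers to at most 0.101 CPM, with LYZ, CD33, ELANE and the alpha and beta globin genes at 0. The 7 B-cell markers summed to between 10.3 and 17.0 CPM, nearly all from CD79A, and MS4A1 was at 0. TAL1, the basic helix-loop-helix oncogene that marks this line, was present at 36.9 and 36.3 CPM in DMSO and 39.96 and 38.3 CPM with ACBI-1.

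The authors' deposited table for MOLT-4 gives its log2 fold changes with the opposite sign to ACBI-1 over DMSO. Of the 1568 genes called here from the counts, 0 had the same sign in that table, whereas all 1378 called in DND-41 had the same sign in the DND-41 table. That table may hold DMSO over ACBI-1, or the labels of the MOLT-4 count columns may be exchanged, and the files do not settle which. Every direction below follows the labels of the count columns, and would be reversed if these were exchanged. With these labels HES1 fell in both lines (-1.73 ± 0.08 in MOLT-4 and -1.54 ± 0.09 in DND-41), as did CXCR4 (-1.03 ± 0.06 and -1.27 ± 0.07). Of the 655 genes called in both lines, 639 had the same sign in each with these labels. In the authors' deposited table an adjusted p below 0.05 was given to 696 genes, 472 with a positive and 224 with a negative value, which are 472 falls and 224 rises by the labels of the counts.

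The transcripts of the proteins that ACBI-1 binds were present and did not pass the test. SMARCA4, the ATPase of most BAF complexes, was at 569.6 and 527 CPM in DMSO and 615 and 544 CPM with ACBI-1, a change of 0.05 ± 0.07. SMARCA2, its paralogue, was at 27.6 and 25.97 CPM and 25.9 and 26.000 CPM (-0.07 ± 0.09). For PBRM1 the levels were 147 and 149 CPM and 138 and 138 CPM (-0.13 ± 0.06), and for VHL, the ligase subunit, 51.2 and 54.4 CPM and 51.2 and 54.6 CPM (-0.02 ± 0.07). The groups overlapped for VHL, SMARCA4 and SMARCA2. For PBRM1 the ACBI-1 libraries lay below both DMSO libraries by a small margin, as was so for 22.3% of all genes tested. Of 28 SWI/SNF subunits tested, 0 rose and 0 fell, beside a background of 10.8% of all genes called, and their median change was -0.0035.

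Within 3 h, 1568 of 14470 genes passed the test in MOLT-4 (10.8%), of which 564 rose (3.90%) and 1004 fell (6.94%), with a median over all genes tested of -0.00097. Falls were more frequent among larger changes. Of 445 genes that changed at least 1.5-fold, 339 fell (76.2%), of 169 that changed at least 2-fold, 132 fell (78.1%), and of 15 that changed at least 4-fold, 12 fell. The median change was 0.36 among genes that rose and -0.46 among genes that fell, so most called changes were below 1.5-fold. When scaled by total counts alone, 584 genes rose and 745 fell (56.1% of calls), and the median of all genes lay at 0.03. The share called went from 2.81% of genes under 1 CPM to 13.3% of genes between 5 and 20 CPM, was highest between 20 and 100 CPM (702 of 5007 genes) and was 11.4% above 100 CPM. By gene type it was 12.1% for protein-coding genes, 6.42% for lincRNAs and 2.08% for processed pseudogenes. By the GC content of the transcript, with the genes in 5 bins of equal size, falls went from 4.58% of genes in the lowest bin to 10.1% in the highest, and the part of base composition in the result was not tested.

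**Figure D1:**
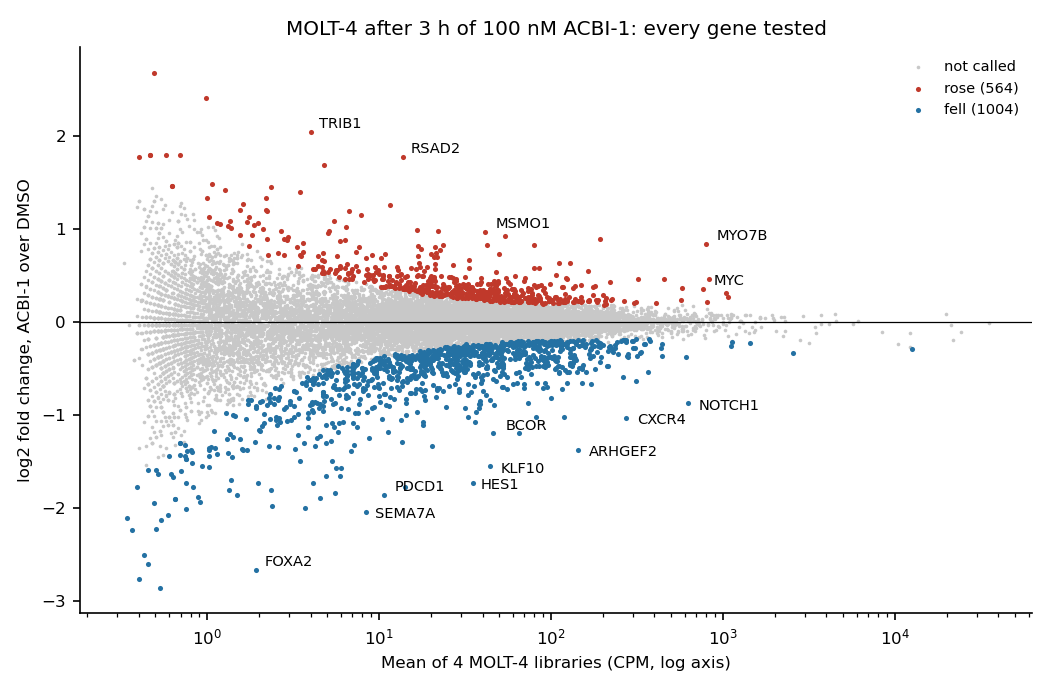
Log2 fold change of ACBI-1 over DMSO against the mean level of the 4 MOLT-4 libraries (CPM, log axis) for the 14470 genes tested, with the 564 that rose in red, the 1004 that fell in blue and the rest in grey. Points below -1 are more numerous than points above 1, and NOTCH1, CXCR4 and ARHGEF2 are among the abundant transcripts that fell.

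The number of calls depended on which library was left out. Without ACBI-1 replicate 1 or replicate 2, the fit of the remaining 3 MOLT-4 libraries with edgeR called 0 genes (1874 and 2273 genes at an unadjusted p below 0.05), in a design where the spread comes from the DMSO pair alone, whereas without a DMSO library it called 1430 and 1149. In a fit of all 8 libraries, where a lone sample is assumed to vary like the other groups, the same omissions left between 712 and 942 genes called. All 1568 genes kept their sign in each of these fits, which share libraries with the main fit. A set of 458 genes, 101 that rose and 357 that fell, was called with all libraries and also after each of the 4 omissions in the fit of all 8, and is called the stable set below. Of the 191 genes named here that were tested, 177 were called and 114 of these belonged to the stable set.

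The 15 largest falls among genes of at least 5 CPM were led by cell-surface and signalling genes. SEMA7A (ENSG00000138623), a membrane-anchored semaphorin of immune cells, went from 13.9 and 13.2 CPM in the DMSO libraries to 3.11 and 3.57 CPM with ACBI-1, a change of -2.04 ± 0.15 (edgeR adjusted p = 1.95e-10). PDCD1, the gene of the inhibitory receptor PD-1, went from 14.8 and 18.7 CPM in the DMSO libraries to 4.52 and 4.88 CPM with ACBI-1 (-1.86 ± 0.14). Both genes lost about the same log2 amount, and neither had an ACBI-1 library near a DMSO library. FGFRL1, an FGF receptor without a kinase domain, had 23.6 and 19.7 CPM in DMSO and 6.53 and 6.39 CPM with ACBI-1 (-1.77 ± 0.12). BMP4, a secreted morphogen, had 9.05 and 8.86 CPM in DMSO and 2.96 and 3.17 CPM with ACBI-1 (-1.57 ± 0.16). TAGAP, a GTPase-activating protein induced in activated T cells, had 7.39 and 8.30 CPM and 2.56 and 3.12 CPM (-1.49 ± 0.17). ARHGEF2, a microtubule-bound guanine nucleotide exchange factor and the most abundant of these genes, went from 216 and 199 CPM in the DMSO libraries to 85.1 and 77.8 CPM with ACBI-1 (-1.38 ± 0.07, edgeR adjusted p = 1.04e-13).

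Transcription factors made up a second portion of those 15. KLF10, an early gene of TGF-beta signalling, went from 62.7 and 67.9 CPM in the DMSO libraries to 24.8 and 20.7 CPM with ACBI-1 (-1.55 ± 0.08). The homeobox gene MSX1 had 9.40 and 10.4 CPM in DMSO and 4.42 and 3.27 CPM with ACBI-1 (-1.39 ± 0.16). ID1, an inhibitor of E-proteins and a BMP target, had 9.05 and 11.3 CPM and 3.51 and 4.78 CPM (-1.32 ± 0.16). BHLHE40, a helix-loop-helix repressor of clock and immune genes, had 18.96 and 19.6 CPM and 7.68 and 8.40 CPM (-1.29 ± 0.11). The remaining falls among the 15, of any kind, were HES1 and DTX1, described with the Notch pathway, CECR6 (-1.84 ± 0.17), the centriolar gene HYLS1 (-1.66 ± 0.16) and the glycosyltransferase gene B3GNT9 (-1.57 ± 0.17). In all 15 both ACBI-1 libraries lay below both DMSO libraries, as the choice of these genes required, and all 15 belonged to the stable set.

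**Figure D2:**
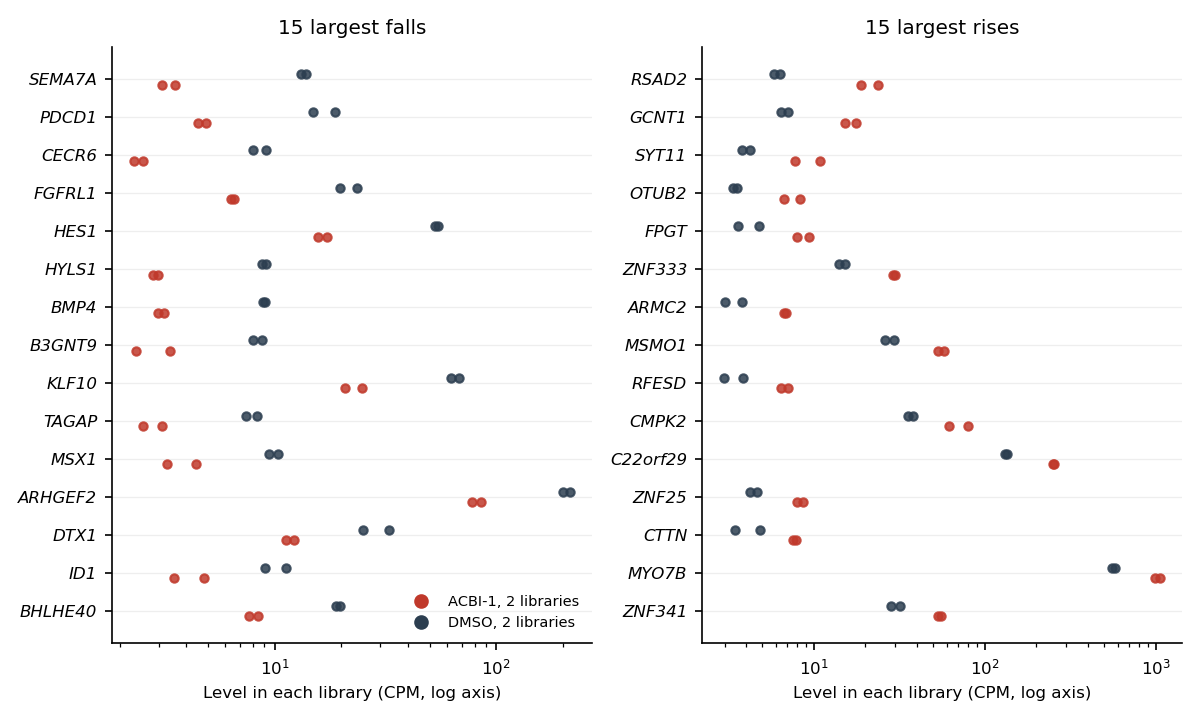
Level of the 15 largest falls (left) and the 15 largest rises (right) among called genes of at least 5 CPM, in each MOLT-4 library (CPM, log axis), DMSO in dark blue and ACBI-1 in red. HES1 drops from 52.7 and 54.4 CPM to 17.2 and 15.7 CPM, and MYO7B goes from 579.9 and 552 CPM to 1063 and 993 CPM.

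The 15 largest rises were smaller in size than the falls. RSAD2 (ENSG00000134321), the gene of the antiviral protein viperin, went from 5.88 and 6.34 CPM in the DMSO libraries to 23.6 and 18.9 CPM with ACBI-1, a change of 1.77 ± 0.13 (edgeR adjusted p = 1.95e-10). GCNT1, which makes the core 2 branch of O-glycans, had 7.04 and 6.44 CPM in DMSO and 15.3 and 17.7 CPM with ACBI-1 (1.26 ± 0.13). SYT11, a synaptotagmin of vesicle traffic, had 4.22 and 3.77 CPM and 10.9 and 7.79 CPM (1.20 ± 0.17). The 2 ACBI-1 libraries of SYT11 were further apart than its DMSO libraries, but did not overlap with them. OTUB2, a deubiquitinase, changed by 1.09 ± 0.17, the fucose-metabolism gene FPGT by 1.02 ± 0.16, ARMC2 by 0.98 ± 0.17 and RFESD by 0.96 ± 0.17. CTTN, which encodes the actin-binding protein cortactin, went from 3.47 and 4.83 CPM in the DMSO libraries to 7.58 and 7.85 CPM with ACBI-1 (0.87 ± 0.17). The zinc finger genes among them were ZNF333 (0.98 ± 0.09), ZNF25 (0.88 ± 0.15) and ZNF341 (0.83 ± 0.08). C22orf29 went from 135 and 132 CPM in the DMSO libraries to 254 and 249 CPM with ACBI-1 (0.89 ± 0.06), and MYO7B, an unconventional myosin, went from 579.9 and 552 CPM in the DMSO libraries to 1063 and 993 CPM with ACBI-1 (0.83 ± 0.06). The other members were MSMO1 and CMPK2, described with sterol synthesis and the interferon genes, and all 15 belonged to the stable set.

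By absolute amount the largest gains and losses were in other genes. After MYO7B, the rises with the largest difference in mean CPM were STAT5A, a transducer of cytokine signals (735 and 644 to 1016 and 917 CPM), MYC, WNK1, a kinase of ion transport (916 and 934 to 1212 and 1133 CPM), ADA, the adenosine deaminase of lymphocytes (1014 and 915 to 1239 and 1131 CPM), CCND3, the D-type cyclin of thymocytes (523 and 478 to 665 and 653 CPM), IKZF1 and MYB. STAT5A changed by 0.46 ± 0.07, CCND3 by 0.37 ± 0.06, WNK1 by 0.32 ± 0.06 and ADA by 0.27 ± 0.07. Of these 8 rises only MYO7B and IKZF1 belonged to the stable set, and ADA and MYB were not called without DMSO replicate 2 (0.20 and 0.17). Among abundant falls, SPN, which encodes the sialoglycoprotein CD43, went from 645 and 728 CPM in the DMSO libraries to 535 and 541 CPM with ACBI-1 (-0.38 ± 0.07), beside NOTCH1, LEF1 and CXCR4, described below. The chromatin architectural gene HMGA1 (-0.22 ± 0.07), the ribosomal protein gene RPL27 (-0.26 ± 0.07) and the overlapping mitochondrial genes MT-ATP6 (-0.29 ± 0.09) and MT-ATP8 (-0.33 ± 0.10) fell, but none of the 4 was called with scaling by total counts or in the fit of all 8 libraries. Replicate 2 of DMSO stood apart for MT-ATP8, with 3296 CPM beside 2320 CPM in replicate 1, and without it the change was -0.05.

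Notch signalling begins when a ligand frees the intracellular part of a NOTCH receptor, which joins the DNA-binding protein RBPJ at target genes. Among receptors, NOTCH1 (ENSG00000148400) went from 811 and 803 CPM in the DMSO libraries to 457 and 439 CPM with ACBI-1, a change of -0.88 ± 0.06 (edgeR adjusted p = 1.59e-10). NOTCH2 went from 138 and 150.3 CPM in the DMSO libraries to 113 and 113 CPM with ACBI-1 (-0.37 ± 0.06). For each receptor both ACBI-1 libraries lay below both DMSO libraries. Among modifiers, NUMBL, a relative of the Notch antagonist NUMB, changed by -0.73 ± 0.10, and MFNG, a fringe glycosyltransferase that tunes ligand choice, by -0.36 ± 0.09. The ligand gene DLL1 was low, with 15 and 16 reads in DMSO and 6 and 4 reads with ACBI-1 (-1.64 ± 0.49). In all, 5 of 30 tested members of the receptor and machinery list fell (16.7%) and 0 rose, with a median of -0.04. Over all genes tested 6.94% fell and 3.90% rose. MFNG was not called with DESeq2 (-0.35), and DLL1 was not called without either DMSO library (-1.68 and -1.59).

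Of 14 tested Notch target genes 6 fell and 1 rose, with a median of -0.34, against falls in 6.94% and rises in 3.90% of all genes. HES1 (ENSG00000114315), the helix-loop-helix repressor that is the best known target, went from 52.7 and 54.4 CPM in the DMSO libraries to 17.2 and 15.7 CPM with ACBI-1, a change of -1.73 ± 0.08 (edgeR adjusted p = 1.04e-13). FJX1, a Golgi-linked secreted factor, went from 3.82 and 3.47 CPM in the DMSO libraries to 1.20 and 0.905 CPM with ACBI-1 (-1.81 ± 0.25). Upstream sequence is shown for these 2 because both fell and both carry the letters TGGGAA, the core that RBPJ binds. The 250 bases before the annotated start follow, 5′ to 3′ on the gene's strand, from RefSeq on GRCh38.p14, at chr3:194135898-194136147 for HES1 and chr11:35618210-35618459 for FJX1, both on the plus strand, with the motif in capitals.
HES1: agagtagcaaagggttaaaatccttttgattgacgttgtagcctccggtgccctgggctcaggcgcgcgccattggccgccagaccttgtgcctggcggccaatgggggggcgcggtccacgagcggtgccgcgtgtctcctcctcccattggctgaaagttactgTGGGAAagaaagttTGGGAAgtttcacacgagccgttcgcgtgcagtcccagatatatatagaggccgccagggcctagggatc
FJX1: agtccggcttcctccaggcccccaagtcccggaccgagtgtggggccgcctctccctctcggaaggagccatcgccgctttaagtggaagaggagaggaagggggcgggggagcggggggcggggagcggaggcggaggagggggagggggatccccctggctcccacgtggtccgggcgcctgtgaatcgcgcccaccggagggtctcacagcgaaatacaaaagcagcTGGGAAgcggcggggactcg
The first bases of the pair of matches in HES1 lie 84 and 70 bases before the start, and that in FJX1 lies 20 bases before it. On either strand, TGGGAA occurs in this window of 24.6% of 27305 genes in the table and of 4 of 12 targets with an entry, HES1, FJX1, HES4 and HEYL. It is a common sequence, and a match is not evidence of binding.

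The other targets that fell were DTX1, an E3 ligase that modulates Notch (25.1 and 32.7 to 11.2 and 12.2 CPM, -1.33 ± 0.11), HES6 (-0.79 ± 0.17), the growth factor receptor gene IGF1R (69.2 and 76.4 to 55.5 and 58.2 CPM, -0.38 ± 0.07) and the pseudokinase gene TRIB2 (-0.29 ± 0.09). MYC, a direct target in T-ALL through a distant enhancer, went the other way, from 676 and 652 CPM in the DMSO libraries to 847 and 882 CPM with ACBI-1 (0.35 ± 0.06, edgeR adjusted p = 0.000300). Both ACBI-1 libraries of MYC lay above both DMSO libraries, although MYC was not called in every omission fit of all 8 libraries. HES6 and TRIB2 were not called with DESeq2 (-0.78 and -0.28), nor TRIB2 without DMSO replicate 2 (-0.26). Elsewhere in the MYC network MYCN fell (-0.89 ± 0.12). Of 11 tested members 3 fell (27.3%) and 1 rose (9.09%), beside 6.94% and 3.90% of all genes.

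**Figure D3:**
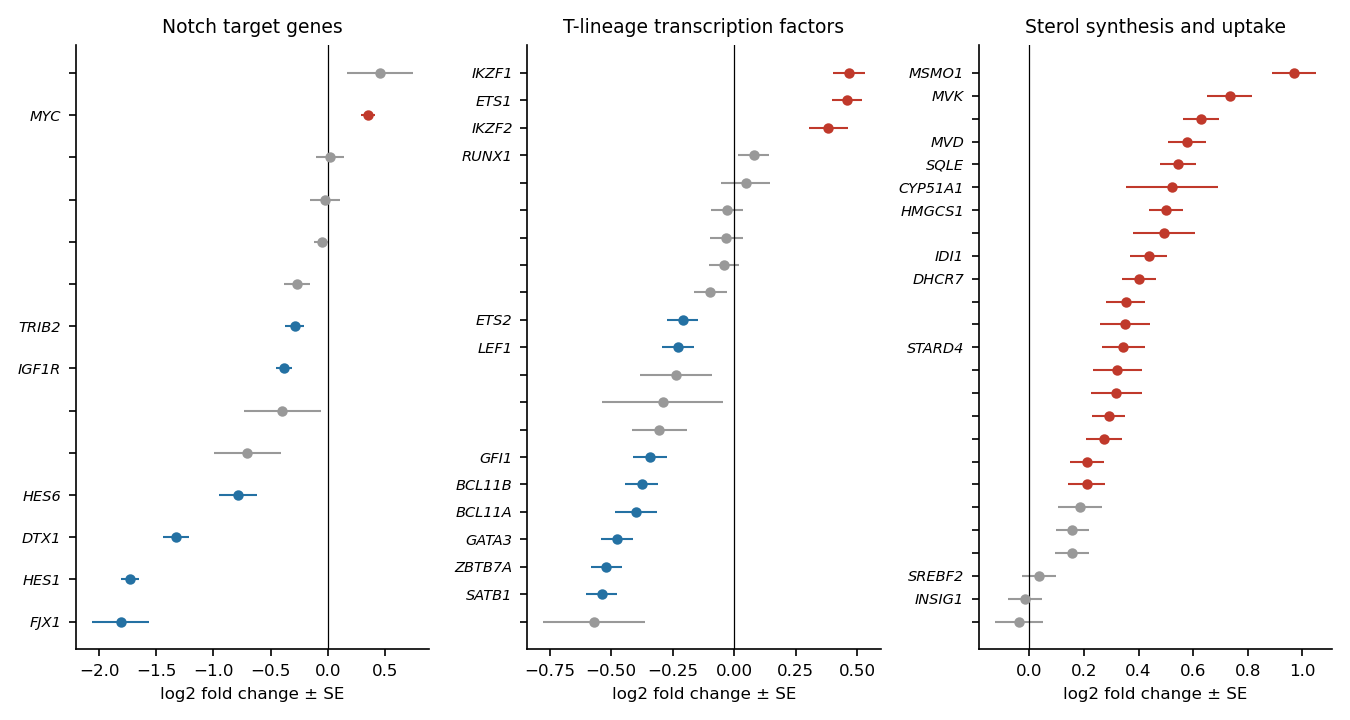
Log2 fold change ± SE of each tested member of the Notch target, T-lineage transcription factor and sterol lists, red for called rises, blue for called falls and grey for members that did not pass, and names for the members described in the text. HES1, FJX1 and DTX1 stand below -1, the T-lineage factors lie on both sides of 0, and 19 of 25 sterol members are called above 0.

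In TAL1-positive T-ALL, TAL1 acts in a complex with E-proteins, LMO proteins, GATA3, RUNX1 and MYB that binds many T-lineage enhancers. TAL1 itself did not pass (0.07 ± 0.08) and neither did RUNX1, which had 847 and 837 CPM in DMSO and 932 and 883 CPM with ACBI-1 (0.08 ± 0.06). LMO2, the bridging subunit, went from 5.78 and 4.38 CPM in the DMSO libraries to 1.71 and 1.96 CPM with ACBI-1 (-1.49 ± 0.22, edgeR adjusted p = 1.95e-05). GATA3 went from 250.3 and 248 CPM in the DMSO libraries to 195 and 169.5 CPM with ACBI-1 (-0.48 ± 0.06), and CBFB, the partner of RUNX proteins, went from 57.02 and 58.9 CPM in the DMSO libraries to 43.03 and 42.2 CPM with ACBI-1 (-0.47 ± 0.07). MYB rose from 763 and 711 CPM in the DMSO libraries to 856 and 892 CPM with ACBI-1 (0.22 ± 0.06). Of 13 tested members, 3 (23.1%) therefore fell and 1 (7.69%) rose, beside 6.94% and 3.90% of all genes. The name-giving gene was at its DMSO level within error. Among 15 listed TAL1 targets, 4 rose and 3 fell, with a median of -0.03. STAT5A and TRIB2 are described above, NFKBIA below, and the ETS gene FLI1 went from 106 and 111 CPM in the DMSO libraries to 79.3 and 84.8 CPM with ACBI-1 (-0.43 ± 0.07).

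T-lineage transcription factors changed in both directions, with 8 falls (38.1%) and 3 rises (14.3%) among 21 tested, beside 6.94% and 3.90% of all genes. SATB1, a chromatin organiser of thymocytes, went from 189 and 185 CPM in the DMSO libraries to 137 and 125 CPM with ACBI-1 (-0.54 ± 0.06). ZBTB7A, a repressor of the POK family, went from 142 and 139 CPM in the DMSO libraries to 103 and 96.8 CPM with ACBI-1 (-0.52 ± 0.06). BCL11B, which commits progenitors to the T lineage, went from 116 and 131 CPM in the DMSO libraries to 97.9 and 95.95 CPM with ACBI-1 (-0.38 ± 0.07). GFI1 (-0.34 ± 0.07), BCL11A (-0.40 ± 0.09), LEF1, a partner of beta-catenin (1532 and 1531 to 1307 and 1353 CPM, -0.23 ± 0.07), and ETS2 (-0.21 ± 0.06) also fell. The rises were in IKZF1, the Ikaros gene (373 and 382 to 564 and 501 CPM, 0.47 ± 0.06), its relative IKZF2 (0.38 ± 0.08) and ETS1 (266 and 268 to 386 and 362 CPM, 0.46 ± 0.06). SATB1, ZBTB7A, GATA3, BCL11B, IKZF1 and ETS1 belonged to the stable set. LEF1 and ETS2 were not called in the fit of all 8 libraries (-0.22 and -0.20), nor ETS2 with DESeq2 (-0.20) or without either DMSO library (-0.21 for each), and IKZF2 was not called without DMSO replicate 1 (0.22).

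The T-cell receptor signals through the CD3 chains, kinases and adaptors, and 10 of 29 tested members of that signalling list fell while 2 rose. These were 34.5% and 6.9% of the list, beside 6.94% and 3.90% of all genes. LAT, the membrane adaptor, went from 26.2 and 27.6 CPM in the DMSO libraries to 16.9 and 16.6 CPM with ACBI-1 (-0.71 ± 0.09), and its partner LCP2 (SLP-76) went from 223 and 197 CPM in the DMSO libraries to 162 and 138 CPM with ACBI-1 (-0.51 ± 0.07). PTPN6, the phosphatase SHP-1, went from 39.4 and 33.02 CPM in the DMSO libraries to 24.2 and 20.6 CPM with ACBI-1 (-0.72 ± 0.09). NFATC1, a calcium-responsive factor, changed by -0.46 ± 0.07. Among receptor and surface genes 6 of 26 fell (23.1%) and 2 rose (7.69%), with a median of 0.0014. CD5 (147 and 154 to 103 and 108 CPM, -0.54 ± 0.06), its relative CD6 (-0.47 ± 0.07), TRAC, the receptor's alpha constant gene (-0.69 ± 0.11), and the adhesion receptor gene CD44 (-0.36 ± 0.07) fell, and CD7 (-0.21 ± 0.07) passed by a small margin. CD3G, a signalling chain, rose from 165 and 145 CPM in the DMSO libraries to 204 and 210.1 CPM with ACBI-1 (0.39 ± 0.07), and so did CD1D, a lipid-presenting molecule of thymocytes, from 17.6 and 15.2 CPM in the DMSO libraries to 27.5 and 29.6 CPM with ACBI-1 (0.77 ± 0.10). CD7 was not called with DESeq2, with scaling by total counts or in the fit of all 8 libraries (between -0.20 and -0.18), nor without DMSO replicate 2 (-0.14).

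Calls among other receptors of the cell surface were mostly falls, as they were among all genes tested (1004 falls and 564 rises). Of 18 chemokine and lipid receptors, 6 fell (33.3%) and 2 rose (11.1%), beside 6.94% and 3.90% of all genes. CXCR4, which holds leukaemic cells in the marrow, went from 369 and 364 CPM in the DMSO libraries to 173 and 192 CPM with ACBI-1 (-1.03 ± 0.06, edgeR adjusted p = 2.08e-11). CCR9, a gut- and thymus-homing receptor, went from 92.8 and 96.03 CPM in the DMSO libraries to 50.6 and 54.2 CPM with ACBI-1 (-0.88 ± 0.07). The sphingosine 1-phosphate receptors moved apart, as S1PR3 went from 14.7 and 16.3 CPM in the DMSO libraries to 7.98 and 5.93 CPM with ACBI-1 (-1.18 ± 0.13) and S1PR1, the receptor of thymic exit, from 36.96 and 36.1 CPM in the DMSO libraries to 46.7 and 51.8 CPM with ACBI-1 (0.41 ± 0.08). CCR4 rose from 5.63 and 5.28 CPM in the DMSO libraries to 9.79 and 9.71 CPM with ACBI-1 (0.81 ± 0.14). LPAR6 (-0.49 ± 0.09) and CCR7, with 49 and 43 reads in DMSO and 21 and 15 with ACBI-1 (-1.38 ± 0.29), fell, but CCR7 was not called with DESeq2 (-1.37). Of 12 inhibitory and costimulatory receptors 5 fell and 0 rose, with PDCD1 the largest of those above 5 CPM. LAIR1 (-0.28 ± 0.06), TNFRSF14 (-0.30 ± 0.09) and TNFRSF4, the OX40 gene at 20 and 15 and 4 and 4 reads (-2.12 ± 0.50), were among them. TNFRSF14 was not called with DESeq2 (-0.29) or without DMSO replicate 2 (-0.18), and TNFRSF4 was not called without DMSO replicate 1 (-1.90). Of 18 semaphorins and receptors 4 fell and 0 rose, and beside SEMA7A these included SEMA4B (-0.72 ± 0.10) and SEMA4D (315 and 309.8 to 254 and 246 CPM, -0.35 ± 0.06).

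Cholesterol is made from acetyl-CoA through mevalonate, and the genes of this route share the activator SREBP-2. Of 25 tested genes of sterol synthesis and uptake 19 rose and 0 fell, the largest share of rises of any list (76.0%, against 3.90% of all genes), with a median of 0.34. Groups did not overlap for 23 of the 25, all higher with ACBI-1, where 29.2% of all genes tested were so. In the order of the route, HMGCS1, which makes the precursor of mevalonate, went from 86.4 and 89.04 CPM in the DMSO libraries to 129.8 and 123.2 CPM with ACBI-1 (0.50 ± 0.06, edgeR adjusted p = 3.07e-06). MVK, mevalonate kinase, went from 34.04 and 40.4 CPM in the DMSO libraries to 67.02 and 59.2 CPM with ACBI-1 (0.73 ± 0.08), MVD from 64.5 and 70.1 CPM in the DMSO libraries to 108 and 97.1 CPM with ACBI-1 (0.58 ± 0.07) and IDI1 from 58.4 and 59.2 CPM in the DMSO libraries to 79.2 and 82.98 CPM with ACBI-1 (0.44 ± 0.07). The rises of these early steps lay between 0.44 and 0.73 on the log2 scale. SQLE, the first oxygenation step, went from 124 and 141 CPM in the DMSO libraries to 196 and 197 CPM with ACBI-1 (0.54 ± 0.07), and MSMO1, a later demethylation enzyme, from 29.3 and 26.1 CPM in the DMSO libraries to 53.02 and 57.5 CPM with ACBI-1 (0.97 ± 0.08, edgeR adjusted p = 3.92e-09). CYP51A1 (0.52 ± 0.17), DHCR7 (0.40 ± 0.06) and the sterol carrier gene STARD4 (0.34 ± 0.08) rose as well. CYP51A1 was not called with DESeq2 or in the fit of all 8 libraries (0.53 in both) or without either DMSO library (0.50 and 0.54), and STARD4 was not called without DMSO replicate 1 (0.25). The regulators did not pass, as INSIG1, itself an SREBP target, had 520.0 and 558 CPM in DMSO and 542 and 542 CPM with ACBI-1 (-0.02 ± 0.06), and SREBF2, the gene of SREBP-2, changed by 0.03 ± 0.06.

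Upstream sequence is shown for MSMO1 and MVK because both rose and both hold TCACNCCA, the inner 8 bases of the sterol regulatory element that SREBP proteins bind. The sequences are from RefSeq on GRCh38.p14, at chr4:165327419-165327668 and chr12:109573544-109573793, both on the plus strand, with the match in capitals.
MSMO1: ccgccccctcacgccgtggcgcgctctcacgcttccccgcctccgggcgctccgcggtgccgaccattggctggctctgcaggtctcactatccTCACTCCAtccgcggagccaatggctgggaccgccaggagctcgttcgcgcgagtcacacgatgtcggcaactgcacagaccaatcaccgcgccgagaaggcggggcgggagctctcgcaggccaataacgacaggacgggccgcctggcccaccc
MVK: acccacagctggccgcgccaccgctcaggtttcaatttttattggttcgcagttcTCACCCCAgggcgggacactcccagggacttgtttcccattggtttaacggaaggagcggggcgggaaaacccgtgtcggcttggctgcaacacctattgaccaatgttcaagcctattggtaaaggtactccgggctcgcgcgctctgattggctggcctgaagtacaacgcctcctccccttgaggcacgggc
The match begins 156 bases before the start in MSMO1 and 195 bases before it in MVK. On either strand the 8-base motif occurs in the 250 bases upstream of 3.92% of genes in the table and of 3 of 19 list members with an entry, the third being SREBF2.

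Lipid genes outside this route did not rise with it. Of 17 fatty acid synthesis genes 0 rose and 3 fell, the elongase gene ELOVL1 (-0.35 ± 0.07), the desaturase gene FADS1 (-0.25 ± 0.06) and SREBF1, the gene of the fatty acid activator SREBP-1 (401 and 398 to 359 and 347 CPM, -0.21 ± 0.06). ABCA1, which exports cholesterol and is a target of the oxysterol receptor LXR, went from 47.3 and 49.98 CPM in the DMSO libraries to 20.9 and 25.9 CPM with ACBI-1 (-1.08 ± 0.09). SOAT1, which esterifies cholesterol, changed by -0.37 ± 0.08. These were the 2 falls among 11 genes of sterol export, with 0 rises, beside falls in 6.94% and rises in 3.90% of all genes. Sterol synthesis genes were thus higher while the exporter was lower, but SREBF1 lost its call when scaled by total counts (-0.18) and without either DMSO library (-0.20 and -0.21), and SOAT1 was not called with DESeq2 (-0.36).

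**Figure D4:**
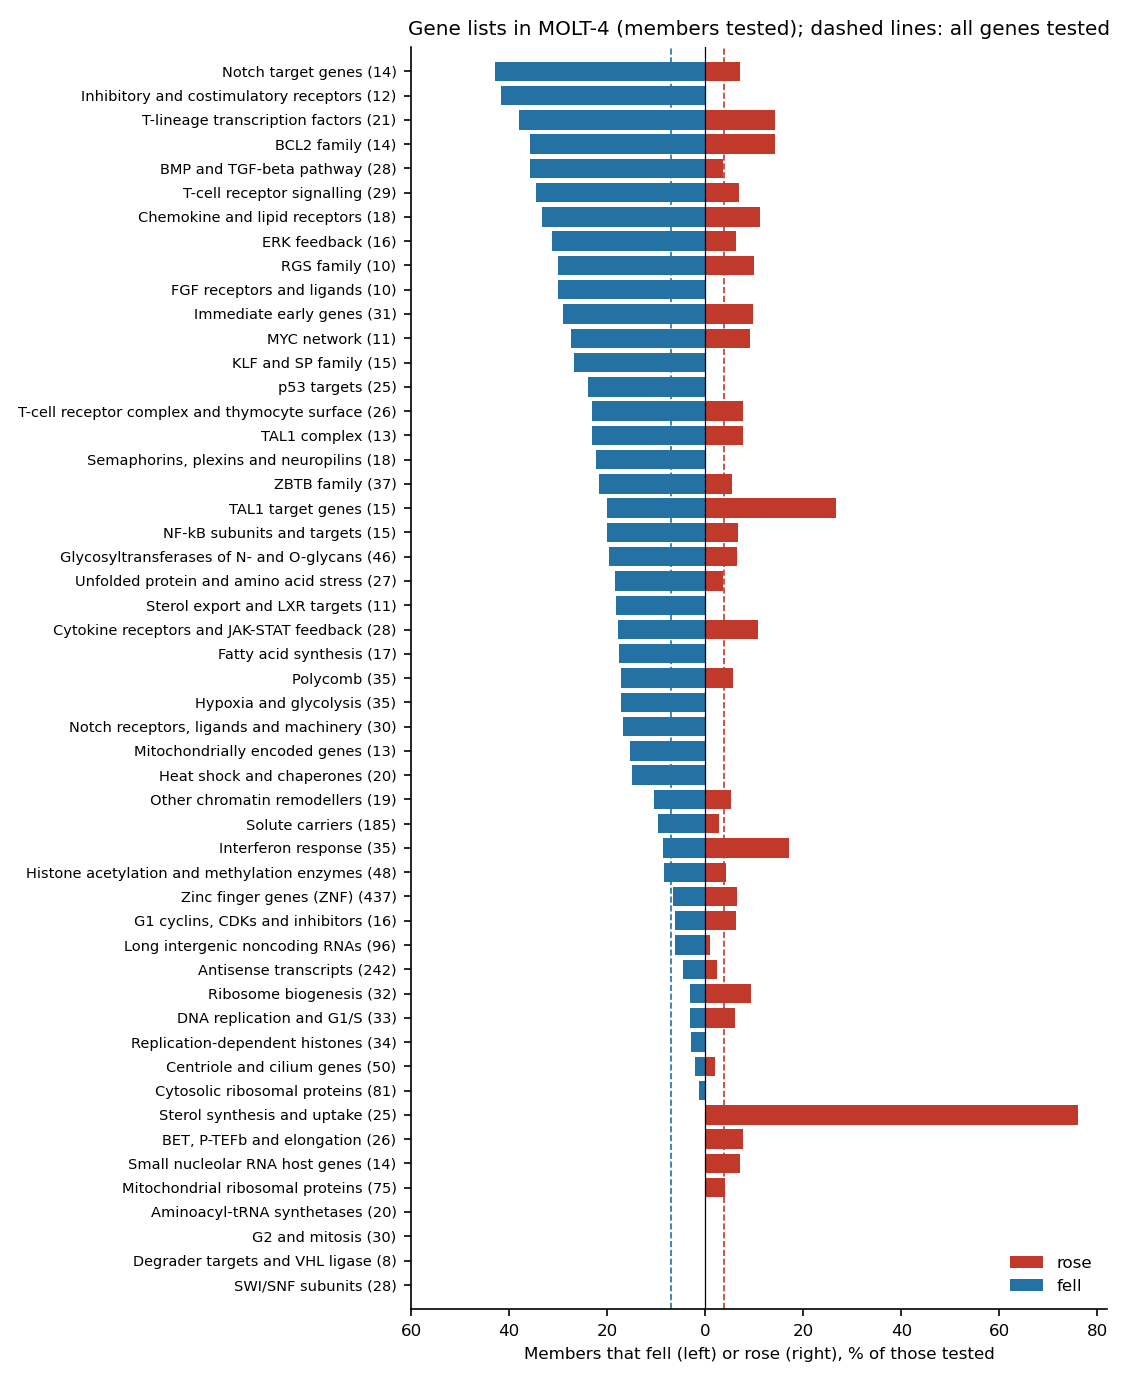
Share of the tested members of each gene list that fell (left, blue) or rose (right, red) in MOLT-4, in percent, with the number tested in brackets and dashed lines at 6.94% and 3.90% for all genes. Sterol synthesis has the largest share of rises (76.0%), and SWI/SNF subunits, mitosis genes and aminoacyl-tRNA synthetases have no call.

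Immediate early genes, the first to respond to a signal, gave 9 falls and 3 rises among 31 tested, with a median of -0.24. ZFP36, which destabilises cytokine mRNAs, went from 43.8 and 43.8 CPM in the DMSO libraries to 29.8 and 25.7 CPM with ACBI-1 (-0.69 ± 0.08), and the AP-1 subunit gene JUND from 166 and 171 CPM in the DMSO libraries to 118 and 125 CPM with ACBI-1 (-0.50 ± 0.06). IER3 (6.13 and 5.94 to 2.41 and 2.46 CPM, -1.33 ± 0.18), IER5 (-0.74 ± 0.12), IER2 (-0.50 ± 0.09) and JUNB (-0.34 ± 0.09) fell, and so did MCL1, a survival gene of short-lived mRNA, from 81.3 and 83.5 CPM in the DMSO libraries to 57.99 and 60.95 CPM with ACBI-1 (-0.50 ± 0.07). EGR1, a target of ERK and serum response factor, went the other way, from 25.5 and 21.4 CPM in the DMSO libraries to 33.8 and 31.03 CPM with ACBI-1 (0.44 ± 0.09), as did EGR2, with 22 and 21 reads in DMSO and 54 and 39 with ACBI-1 (1.08 ± 0.28), although EGR2 was not called with DESeq2. Of the phosphatases that switch off ERK and related kinases, DUSP2 went from 20.9 and 17.1 CPM in the DMSO libraries to 10.6 and 8.75 CPM with ACBI-1 (-1.0004 ± 0.12) and DUSP5 changed by -1.04 ± 0.23. SPRY4, another ERK inhibitor, rose from 1.71 and 2.06 CPM in the DMSO libraries to 4.37 and 5.78 CPM with ACBI-1 (1.40 ± 0.22). In all 5 of 16 ERK feedback genes fell (31.2%) and 1 rose (6.25%). DUSP5 and JUNB were not called with DESeq2 (-1.03 and -0.33). JUNB changed by -0.19 without ACBI-1 replicate 2.

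BMP and TGF-beta signals pass from ligands through receptors to SMAD factors. Of 28 tested members 10 fell (35.7%) and 1 rose (3.57%), beside 6.94% and 3.90% of all genes. Beside the ligand BMP4 and the target ID1, the transducer SMAD3 went from 3.62 and 5.69 CPM in the DMSO libraries to 1.86 and 1.81 CPM with ACBI-1 (-1.37 ± 0.23), with DMSO libraries that lay further apart than the ACBI-1 libraries. The receptor gene TGFBR1 changed by -0.47 ± 0.12. Some inhibitors of the route fell too, the ubiquitin ligase gene SMURF2 from 59.3 and 60.4 CPM in the DMSO libraries to 31.98 and 33.5 CPM with ACBI-1 (-0.90 ± 0.07), SKIL (4.22 and 4.68 to 2.26 and 2.31 CPM, -0.99 ± 0.20) and SKI (-0.50 ± 0.12). The one rise was NOG, a secreted BMP antagonist, from 26 and 23 reads in DMSO to 70 and 67 with ACBI-1 (1.45 ± 0.24). SKIL, SKI and TGFBR1 were not called with DESeq2 (-0.98, -0.49 and -0.46).

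Cytokine and NF-kB genes were mixed. JAK3, the kinase of the common gamma chain receptors, went from 67.03 and 61.4 CPM in the DMSO libraries to 40.1 and 40.4 CPM with ACBI-1 (-0.70 ± 0.07), and PIM1, a kinase induced by STAT5, from 17.7 and 17.2 CPM in the DMSO libraries to 10.4 and 12.4 CPM with ACBI-1 (-0.64 ± 0.11). The feedback inhibitors CISH (-0.63 ± 0.14) and SOCS3, with 47 and 34 reads in DMSO and 15 and 15 with ACBI-1 (-1.45 ± 0.32), were lower, whereas PIM2 rose from 10.6 and 11.1 CPM in the DMSO libraries to 16.1 and 15.6 CPM with ACBI-1 (0.52 ± 0.11). STAT5A thus rose while PIM1 and CISH fell, in a list of 28 with 5 falls (17.9%) and 3 rises (10.7%). Over all genes tested 6.94% fell and 3.90% rose. CISH and SOCS3 were not called with DESeq2 (-0.62 and -1.45). Of 15 NF-kB genes 3 fell and 1 rose. NFKBIA, the inhibitor of NF-kB, went from 35.3 and 37.1 CPM in the DMSO libraries to 24.7 and 26.8 CPM with ACBI-1 (-0.52 ± 0.08), the lymphotoxin gene LTB from 9.001 and 10.97 CPM in the DMSO libraries to 5.82 and 6.34 CPM with ACBI-1 (-0.74 ± 0.14) and the deubiquitinase gene TNFAIP3 changed by -0.24 ± 0.07, while BIRC3 rose (0.46 ± 0.14). TNFAIP3 was not called with DESeq2 or in the fit of all 8 libraries, at -0.23 in both, or without DMSO replicate 1 (-0.18). BIRC3 was not called with DESeq2 (0.47) or without DMSO replicate 1 (0.36).

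Genes of cell death moved on both sides. FAS, the death receptor, went from 12.2 and 12.1 CPM in the DMSO libraries to 6.53 and 6.59 CPM with ACBI-1 (-0.92 ± 0.13), PMAIP1, which encodes NOXA, from 17.5 and 17.2 CPM in the DMSO libraries to 11.4 and 11.8 CPM with ACBI-1 (-0.60 ± 0.11), and the p53 target PHLDA3 changed by -0.96 ± 0.19. Of 25 tested p53 targets 6 fell (24.0%) and 0 rose, beside falls in 6.94% and rises in 3.90% of all genes. In the BCL2 family 5 of 14 fell (35.7%) and 2 rose (14.3%). Pro-survival MCL1 and pro-apoptotic PMAIP1, BAK1 (-0.32 ± 0.07) and BID (-0.23 ± 0.07) fell, while pro-survival BCL2L1 (189 and 189 to 224 and 226 CPM, 0.23 ± 0.06) and pro-apoptotic BCL2L11, the BIM gene (49.98 and 48.7 to 61.1 and 72.1 CPM, 0.41 ± 0.08), rose. The stress genes DDIT4 (-1.06 ± 0.11) and TRIB3 (-0.79 ± 0.12) fell, in lists with 6 of 35 (hypoxia and glycolysis) and 5 of 27 (unfolded protein and amino acid stress) members lower and 0 and 1 higher. In the RGS family of G-protein regulators RGS19 (-0.66 ± 0.08) and RGS16 (-1.35 ± 0.37) were among 3 falls of 10, and RGS17 (1.33 ± 0.36) was the 1 rise. Without DMSO replicate 1, RGS16 and RGS17 were not called (-1.08 and 1.10). BID was not called with DESeq2 or in the fit of all 8 libraries (-0.22 in both) or without either DMSO library (-0.21 and -0.25).

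Chromatin regulators outside SWI/SNF included some large falls. BCOR, a subunit of a Polycomb repressive complex 1 variant, went from 162 and 157 CPM in the DMSO libraries to 79.6 and 80.2 CPM with ACBI-1 (-1.03 ± 0.06, edgeR adjusted p = 1.39e-11), and its relative BCORL1 from 47.1 and 47.8 CPM in the DMSO libraries to 34.4 and 30.7 CPM with ACBI-1 (-0.57 ± 0.08). CBX2, a Polycomb reader of methylated histone H3, changed by -0.42 ± 0.07. PCGF1, which binds BCOR, and EZH1, an H3 methyltransferase, rose (0.38 ± 0.10 and 0.31 ± 0.07). In all 6 of 35 Polycomb genes fell (17.1%) and 2 rose (5.71%), beside 6.94% and 3.90% of all genes. CHD4, the ATPase of the NuRD complex, went from 376 and 379.8 CPM in the DMSO libraries to 259 and 237 CPM with ACBI-1 (-0.63 ± 0.06) among 19 other remodellers with 2 falls, and CHD1 was the 1 rise (0.23 ± 0.06). Histone-modifying enzymes stood at 4 falls and 2 rises of 48, near the background. These included SETD1B, an H3 lysine methyltransferase (302 and 327 to 216 and 208 CPM, -0.60 ± 0.06), KDM6B, an H3 demethylase (88.5 and 100.3 to 73.1 and 65.1 CPM, -0.48 ± 0.07), the acetyltransferase gene EP300 (-0.28 ± 0.06) and the deacetylase gene SIRT1 (-0.43 ± 0.10). The acetyltransferase gene KAT2A (0.27 ± 0.06) and the deacylase gene SIRT7 (0.34 ± 0.08) were the rises. Of 26 elongation and BET genes AFF1, a scaffold of the super elongation complex, was 1 of 2 rises (0.37 ± 0.07), with 0 falls. Among repressor families 8 of 37 ZBTB genes fell and 2 rose, with ZBTB2 at -0.75 ± 0.08, and 4 of 15 KLF and SP genes fell, KLF13 (-0.48 ± 0.06) and KLF3 (-0.81 ± 0.12) among them. PCGF1 and SIRT1 were not called with DESeq2 (0.39 and -0.42), PCGF1, EZH1 and KAT2A were not called without DMSO replicate 2 (0.30, 0.24 and 0.21), and CHD1 was not called without DMSO replicate 1 (0.20).

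Interferon induces a common set of antiviral genes through STAT and IRF factors at GAAA repeats. Of 35 tested members 6 rose (17.1%) and 3 fell (8.57%), beside 3.90% and 6.94% of all genes. The median of the set was 0.04, and most of it did not pass. Beside RSAD2, its neighbour CMPK2, a nucleotide kinase, went from 38.1 and 35.5 CPM in the DMSO libraries to 79.9 and 62.1 CPM with ACBI-1 (0.92 ± 0.09). In RefSeq the first of the 2 annotated RSAD2 starts lies 22 bases from the nearest CMPK2 start, on the opposite strand. The second RSAD2 start lies 11892 bases from the first. USP18 (16.3 and 16.4 to 23.998 and 23.03 CPM, 0.50 ± 0.09) and the activator gene IRF1 (102 and 98.6 to 138 and 126 CPM, 0.37 ± 0.06) were smaller rises. The sequence upstream of the second of the 2 RSAD2 starts, at chr2:6877527-6877776 on the plus strand of GRCh38.p14, is shown because it holds GAAANNGAA, letters of the interferon-stimulated response element, on the reverse strand (in capitals, first base 144 bases before the start).
RSAD2: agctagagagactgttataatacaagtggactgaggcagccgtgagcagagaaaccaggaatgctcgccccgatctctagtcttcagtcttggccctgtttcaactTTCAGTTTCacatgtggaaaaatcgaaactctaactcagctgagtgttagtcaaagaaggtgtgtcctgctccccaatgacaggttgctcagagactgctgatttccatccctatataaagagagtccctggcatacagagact
On either strand these letters occur in 8.41% of genes in the table and in 15 of 24 list members with an entry, and RSAD2 is 1 of the 5 called members with an entry and the only one of them with the motif.

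Several lists of growth and housekeeping genes had a smaller share called than the 10.8% of all genes, and others had a like or larger one. Of 30 genes of G2 and mitosis, 20 aminoacyl-tRNA synthetases and 8 genes of the degrader's targets and ligase, 0 rose and 0 fell. Of 81 cytosolic ribosomal protein genes 0 rose and 1 fell, of 75 mitochondrial ribosomal protein genes 3 rose and 0 fell, and of 50 centriole and cilium genes 1 rose and 1 fell. Of 33 replication genes 2 rose and 1 fell, the fall being CCNE1 (-0.49 ± 0.10). CDKN2D, the cyclin-dependent kinase inhibitor p19, went from 26.8 and 27.8 CPM in the DMSO libraries to 15.97 and 15.8 CPM with ACBI-1 (-0.81 ± 0.09) and CCND3 rose, the only calls among 16 G1 genes (12.5%). The share was the same for ribosome biogenesis (3 rises and 1 fall of 32), and it was 15.4% for the 13 mitochondrially encoded genes (2 falls). Of 437 zinc finger genes named ZNF, 28 rose (6.41%) and 29 fell (6.64%), so rises were as frequent as falls there. Among noncoding transcripts, SNHG15 went from 65.7 and 60.3 CPM in the DMSO libraries to 99.3 and 92.6 CPM with ACBI-1 (0.58 ± 0.07), and it was the only call among 14 small nucleolar RNA host genes. LINC00657, also known as NORAD, went from 252 and 255 CPM in the DMSO libraries to 209 and 203 CPM with ACBI-1 (-0.32 ± 0.06), and ERVH48-1 from 67.2 and 64.4 CPM in the DMSO libraries to 43.7 and 45.2 CPM with ACBI-1 (-0.59 ± 0.07). For the counting step, use of strand is not given in the sources used here. It is therefore not known whether the reads of overlapping and antisense genes were told apart.

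Under 5 CPM, some calls had fitted changes of at least 4-fold. TRIB1, a pseudokinase related to TRIB2, went from 1.46 and 1.61 CPM in the DMSO libraries to 6.33 and 6.59 CPM with ACBI-1 (2.04 ± 0.20, edgeR adjusted p = 5.85e-08). IGHV3-13, a segment of the immunoglobulin heavy chain, went from 8 and 4 reads to 32 and 34 reads (2.41 ± 0.41), and the small GTPase gene DIRAS2 from 3 and 2 to 14 and 20 reads (2.68 ± 0.57). FOXA2, a forkhead factor of endoderm, went from 55 and 77 to 12 and 9 reads (-2.67 ± 0.31). CXCR3, a chemokine receptor of effector T cells, went from 24 and 13 to 4 and 1 reads (-2.86 ± 0.59), OLIG3 from 19 and 12 to 4 and 1 (-2.60 ± 0.60) and DAPP1, an adaptor of B-cell signalling, from 16 and 13 to 3 and 2 (-2.51 ± 0.58). The homeobox gene DLX1 went from 12 and 12 to 2 and 3 reads (-2.24 ± 0.60) and the metallothionein gene MT1H from 16 and 17 to 3 and 4 (-2.23 ± 0.52). In each the groups did not overlap, but only TRIB1, IGHV3-13 and FOXA2 belonged to the stable set, DLX1 was not called without either DMSO library, and OLIG3 was not called without DMSO replicate 1 (-2.24).

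DND-41 gave a related but not identical response, measured in separate cells with separate controls. Of 14019 genes tested there 1378 were called (9.83%), 530 up (3.78%) and 848 down (6.05%). Of the 564 genes that rose in MOLT-4, 528 were tested in DND-41, 483 of these had the same sign (91.5%) and 208 were called the same way (39.4%), with medians of 0.35 in MOLT-4 and 0.24 in DND-41. Of the 1004 that fell, 887 were tested, 800 had the same sign (90.2%) and 431 were called the same way (48.6%), with medians of -0.44 and -0.29. The 655 genes called in both lines were 41.8% of the MOLT-4 calls and 47.5% of the DND-41 calls, and 639 of them had the same sign. HES1 (-1.54 ± 0.09 in DND-41), CXCR4 (-1.27 ± 0.07), HYLS1 (-1.54 ± 0.18), TAGAP (-1.39 ± 0.14), ZNF333 (0.84 ± 0.09) and ZNF341 (1.13 ± 0.10) were called the same way in DND-41.

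**Figure D5:**
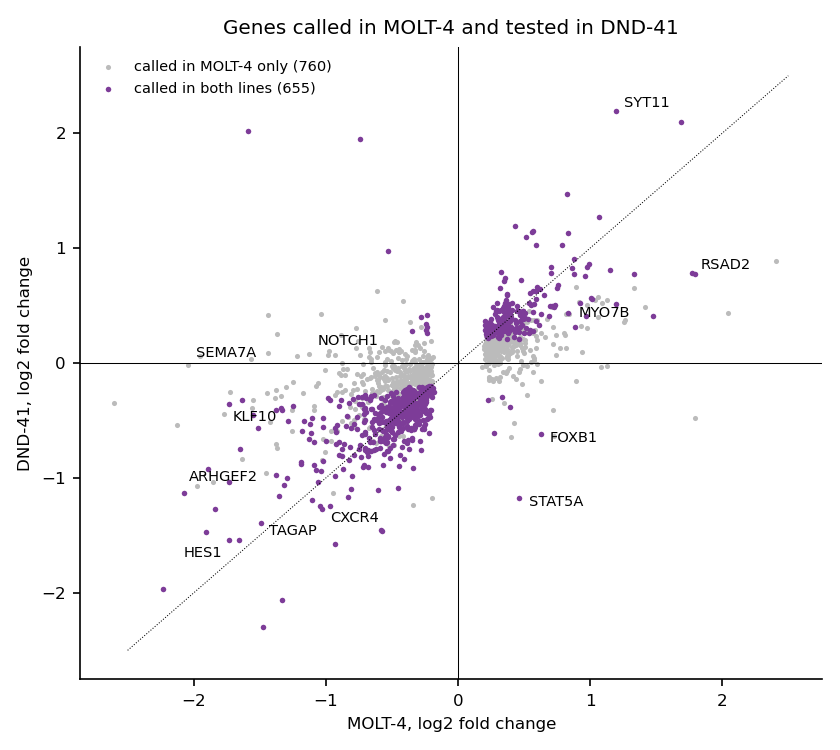
Log2 fold change in DND-41 against that in MOLT-4 for the 1415 genes called in MOLT-4 and tested in DND-41, with the 655 called in both lines in purple and the rest in grey, and a dotted line of equal change. Most points share a sign, while SEMA7A and NOTCH1 lie near 0 in DND-41 and STAT5A and FOXB1 lie below 0 there.

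The interaction of line and treatment passed the test for 100 of 15604 genes (0.641%), 69 lower and 31 higher in MOLT-4. NOTCH1 was at -0.0028 ± 0.09 in DND-41, a difference of -0.85 ± 0.11 (edgeR adjusted p = 4.86e-05), and SEMA7A at -0.02 ± 0.08, a difference of -1.998 ± 0.18 (edgeR adjusted p = 2.16e-07). DTX1, KLF10 and BHLHE40 fell further in MOLT-4 (-0.90 ± 0.15, -1.21 ± 0.15 and -0.76 ± 0.14). For HES1 the difference was -0.16 ± 0.12 and did not pass. The 8 largest differences on the lower side with a mean of at least 5 CPM in MOLT-4 included the following. B3GNT9, CDH23 (-0.53 ± 0.15 in MOLT-4), CD248 (-1.04 ± 0.16) and FHL2 (-0.61 ± 0.15) fell in MOLT-4. Of these, CDH23 also rose in DND-41 (0.98 ± 0.24). The DND-41 changes of FHL2 (0.63 ± 0.27), CD248 (0.43 ± 0.28) and B3GNT9 (0.03 ± 0.23) did not pass. REL and ID3 did not pass in MOLT-4 (-0.01 ± 0.09 and 0.21 ± 0.09) and rose in DND-41 (0.95 ± 0.11 and 1.27 ± 0.08). On the higher side, FOXB1 rose in MOLT-4 (0.63 ± 0.11) and fell in DND-41 (-0.61 ± 0.13), FAM46C fell in DND-41 (-0.70 ± 0.08) and did not pass in MOLT-4 (0.38 ± 0.13) except in the fit of all 8 libraries and with the replicate block (0.38 in both), and S1PR1 rose in MOLT-4 while its DND-41 change of -0.64 ± 0.23 did not pass. MSMO1 and RSAD2 rose further in MOLT-4 (0.58 ± 0.11 and 1.01 ± 0.19), but the difference did not pass for MSMO1 without MOLT-4 ACBI-1 replicate 2 (0.48) or DMSO replicate 2 (0.47), nor for RSAD2 without MOLT-4 ACBI-1 replicate 1 (0.82). The MOLT-4 falls of CDH23 and FHL2 were not called with DESeq2 (-0.52 and -0.60) or without DMSO replicate 2 (-0.45 and -0.48).

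Some differences rested on 1 DND-41 library. Reads of 35 genes that are high in MOLT-4 stood at a median of 0.628% of their MOLT-4 level in DND-41 DMSO replicate 2, and between 0.0169% and 0.0792% in the other 3 DND-41 libraries. The reverse, 17 genes high in DND-41, stood between 0.148% and 0.287% in the 4 MOLT-4 libraries. Both sets were chosen at 50 CPM or more in each library of their own line. Their median in the other line was at most 1% of their own level. Low levels thus follow from the choice, and only differences between libraries are informative. The fit of the MOLT-4 libraries uses no DND-41 library. Without DND-41 DMSO replicate 2 the difference went from 3.92 to -0.15 for TRBV20-1, a T-cell receptor segment, from 3.94 to 0.16 for ITM2A and from 3.33 to 1.15 for ALDH1A2, none of them called in MOLT-4. For STAT5A the difference was 1.66 with it and 1.25 without it, past the test both times. Without that library the interaction called 58 genes, 56 of them shared with the 100.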

How the data were processed

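Strand-specific paired-end libraries were made from total RNA, per the labels' protocols. The authors deposited raw read counts per Ensembl gene, 1 column per library, with no normalization. The submitters' processing notes list STAR 2.5.2a, featureCounts, DESeq2 1.12.4 and hg19, with no role for any of them. Annotation and strand setting were not given in the sources used here. The authors' deposited table of each line gives, per the file headers, a mean normalized signal, a log2 fold change with standard error, a test score, and p-values before and after adjustment. Only the log2 fold change and the adjusted p-value of these were used. Each count column was matched to 1 labelled sample.

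The test was that of edgeR 4.0.16 (quasi-likelihood F-test, trimmed mean of M-values scaling, filterByExpr, limma 3.58.1, R 4.3.3), MOLT-4 on its own 4 libraries with no covariate, and the difference between lines as the interaction in a fit of all 8. P-values were adjusted by Benjamini-Hochberg over all genes tested, at 5%. The script was tested on simulated counts. With 2 libraries in each group an exact permutation test cannot reach 0.05. Replicates differed by more than sampling noise (chi-square per gene of 3.14 and 3.71), so each library counted once, and no spike-in is named, so values are relative to the library. Log2 fold changes are on the TMM scale, while CPM is scaled by the total count.

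Members and gene lists were chosen with earlier results of these data known, so a list's share beside that of all genes is not a test. Genes named are the 15 largest changes in each direction above a mean of 5 CPM, the 8 largest in CPM difference, up to 6 called members per list with the smallest p, the 8 largest line differences in each direction and, below 5 CPM, up to 6 with at least a 4-fold change. Some genes these rules chose, and entries without a symbol, are not reported here. CYP51A1, DHCR7, STARD4, BCL11A, GFI1, LEF1, ETS2, IKZF2, CD44, CD7, IER2, JUNB, SKI, TGFBR1, CCR7 and the elongation gene AFF1 were kept or added after their values were seen. Alternatives were DESeq2 1.42.0, its size factors, total-count scaling, no mitochondrial genes, other filters, a 1% threshold, a minimum fold of 1.5, the replicate block, the fit of all 8 libraries and leaving out each library. Gene type and GC content came from GENCODE release 29 by Ensembl identifier, and promoters from RefSeq (GRCh38.p14), of which no coordinate was mixed with hg19.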

Additional observations from a re-analysis of the deposited data

Results flagged for a closer look

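The results here are genes named above whose response differed between MOLT-4 and DND-41 by the interaction test, each given as the log2 change in MOLT-4 minus that in DND-41 (edgeR, adjusted p below 0.05 for each).

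Lower in MOLT-4 were SEMA7A (-1.998 ± 0.18), B3GNT9 (-1.58 ± 0.29), CDH23 (-1.48 ± 0.27), CD248 (-1.44 ± 0.34), FHL2 (-1.21 ± 0.29), KLF10 (-1.21 ± 0.15), ID3 (-1.04 ± 0.14), SKIL (-1.03 ± 0.22), REL (-0.94 ± 0.15), DTX1 (-0.90 ± 0.15), NOTCH1 (-0.85 ± 0.11), LTB (-0.79 ± 0.15), BHLHE40 (-0.76 ± 0.14), PIM1 (-0.58 ± 0.12), TNFAIP3 (-0.53 ± 0.10), SMURF2 (-0.50 ± 0.10), BCOR (-0.45 ± 0.09), SATB1 (-0.44 ± 0.09), IGF1R (-0.42 ± 0.10), DDIT4 (-0.86 ± 0.16) and GATA3 (-0.40 ± 0.09). SEMA7A had 78.4 and 71.8 CPM in the DND-41 DMSO libraries and 64.6 and 84.5 CPM with ACBI-1, where the groups overlapped. NOTCH1 had 923 and 946 CPM and 847 and 1033 CPM there, and the groups overlapped as well. TNFAIP3 rose in DND-41 (0.32 ± 0.07) and fell in MOLT-4 (-0.24 ± 0.07).

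Higher in MOLT-4 were STAT5A (1.66 ± 0.20), TRIB1 (1.63 ± 0.39), FOXB1 (1.27 ± 0.17), FAM46C (1.10 ± 0.14), S1PR1 (1.07 ± 0.22), RSAD2 (1.01 ± 0.19), C22orf29 (0.60 ± 0.10), MSMO1 (0.58 ± 0.11), SNHG15 (0.56 ± 0.10), CCR4 (6.53 ± 1.24), ITM2A (3.94 ± 0.93), TRBV20-1 (3.92 ± 0.90) and ALDH1A2 (3.33 ± 0.79). CCR4 had no counts in either ACBI-1 library of DND-41 and 0.300 and 0.349 CPM in DMSO, so its fitted difference depends on the prior count and is no bound. FOXB1 had 11.5 and 11.3 CPM in DND-41 DMSO and 6.75 and 8.18 CPM with ACBI-1, and FAM46C had 49.9 and 49.1 CPM and 31.2 and 30.2 CPM. DND-41 DMSO replicate 2 holds more reads of MOLT-4 genes than the other DND-41 libraries. Without it, IGF1R, GATA3, SATB1, RSAD2, PIM1, TNFAIP3, SKIL, SMURF2, BCOR, TRIB1, CD248, FHL2, TRBV20-1, ITM2A and ALDH1A2 did not pass. TRBV20-1, ITM2A and ALDH1A2 then stood at -0.15, 0.16 and 1.15. The other differences moved less, as for IGF1R (-0.42 to -0.44), PIM1 (-0.58 to -0.57), CD248 (-1.44 to -1.50) and RSAD2 (1.01 to 0.84). IGF1R, GATA3, FHL2, TRIB1, CD248, TRBV20-1, ITM2A and ALDH1A2 were lost under most other omissions too. RSAD2 (0.82), PIM1 (-0.48), TNFAIP3 (-0.51), SMURF2 (-0.49) and BCOR (-0.47) were also lost without MOLT-4 ACBI-1 replicate 1. SATB1 was also lost without MOLT-4 ACBI-1 replicate 2 (-0.41). SKIL was also lost without MOLT-4 ACBI-1 replicate 1 or 2 (-1.04 and -1.09) and without MOLT-4 DMSO replicate 2 (-0.98). Lost only under other omissions were B3GNT9 (-1.38 without MOLT-4 ACBI-1 replicate 2), BHLHE40 and DDIT4 (-0.72 and -0.83 without MOLT-4 ACBI-1 replicate 1), LTB and SNHG15 (-0.75 and 0.49 without MOLT-4 ACBI-1 replicate 1, -0.67 and 0.47 without MOLT-4 DMSO replicate 2), MSMO1 (0.48 and 0.47 without MOLT-4 ACBI-1 replicate 2 and DMSO replicate 2) and S1PR1 (0.96 without MOLT-4 ACBI-1 replicate 2, 1.01 and 0.92 without DND-41 ACBI-1 replicate 2 and DMSO replicate 1). The differences of SEMA7A, CDH23, KLF10, ID3, REL, DTX1, NOTCH1, STAT5A, FOXB1, FAM46C, C22orf29 and CCR4 passed after each of the 8 omissions.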

How the results depend on the processing

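Every called gene that an alternative tested kept its sign (1565 genes without mitochondrial genes, 1521 with a mean of at least 1 CPM, all 1568 in the other fits). The alternatives share libraries with the main fit, so a kept sign is not separate evidence. The number called was 696 with DESeq2 (694 shared, 224 up and 472 down), 39 with no filter on low counts, 879 at a threshold of 1% and 74 (15 up, 59 down) for a minimum fold of 1.5. Leaving out 1 library gave between 0 and 1430 in the fit of MOLT-4 alone and between 712 and 942 in the fit of all 8 (725 and 712 without ACBI-1 replicate 1 and 2, 942 and 774 without DMSO replicate 1 and 2). It was within 1.5 times of the main count with DESeq2 size factors (1537), total-count scaling (1329), no mitochondrial genes (1553), a mean of at least 1 CPM (1604) and all 8 libraries (1397). With the replicate block 2228 genes were called, including all 1568. The same-numbered libraries deviated together with a correlation of 0.16 over 10116 genes, but 2 numbers do not establish a pairing. For the difference between lines the count of 100 became 302 with the replicate block, 110 with DESeq2 size factors and 96 with DESeq2, and leaving out 1 library gave between 49 and 138 (58 without DND-41 DMSO replicate 2, 52 and 49 without MOLT-4 ACBI-1 replicate 1 and 2, 64 without MOLT-4 DMSO replicate 2). Among genes that were not called, SMARCA4, VHL, INSIG1, SREBF2, REL and TRBV20-1 changed sign under some alternatives without passing, and ID3 changed sign without 1 library but passed with the replicate block (0.20) and in the fit of all 8 without ACBI-1 replicate 2 (0.42). Depth limits calls of low genes, as 2.81% of those under 1 CPM passed. The cause of these changes was not tested, beyond the smaller number of libraries or larger number of genes that some alternatives fit.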
